A study of Caenorhabditis elegans with 6 samples.

Results

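The genes described here are 40 genes of the nematode Caenorhabditis elegans that act in neurons, at the synapse, in making or loading a transmitter, as channels, in the axonal cytoskeleton, or as transcription factors of neuron fate. They were taken by symbol from the gene annotation of the array table, and 39 of the 40 were measured, among 22548 probe sets (called features below). No feature names cha-1, the choline acetyltransferase gene. Altogether 75 features name a member, each of them naming that member alone. A gene with several features is given on its brightest one, by mean log2 intensity over all 6 arrays.

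Total RNA of whole mixed-stage embryos was measured on 3 arrays of the mir-35-41(nDf50) mutant and on 3 arrays of the wild type strain N2, all from cultures kept at 20 degrees Celsius on plates with added egg yolk. The mutant strain is VT2935 lacking nEx1187, which by its name is an extrachromosomal array, and the nDf50 deletion removes most of the mir-35 family of embryonic microRNA genes. Embryos were released with hypochlorite, and separate cultures for the replicates are not mentioned in the labels, so a p-value here reflects the scatter of these arrays, some of which may be technical. The comparison asks which embryonic mRNAs differ where these microRNAs are missing.

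Neurons signal by fusing vesicles with the membrane. The SNARE proteins of vesicle and membrane zip together, UNC-18 and UNC-13 prepare them, and synaptotagmin senses the calcium that triggers fusion. Small vesicles hold acetylcholine, GABA, glutamate or amines, each made by its own enzyme and loaded by its own transporter, while dense core vesicles hold neuropeptides cut from precursors. In the worm embryo neuroblasts are specified by transcription factors, and the differentiated genes come on after the last divisions, so in a mixed culture their level also depends on the ages of the embryos. In RNA from whole embryos, fewer cells of a type and less RNA per cell cannot be told apart.

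Each value below is a log2 intensity on a feature, a difference is the mutant mean minus the N2 mean, and values of a group are given for replicates 1, 2 and 3 in that order. The median log2 intensity of all features lay between 6.49 and 6.56 on the mutant arrays and between 6.29 and 6.51 on the N2 arrays. N2 replicate 3 correlated with the other arrays at 0.944 to 0.971, and mutant replicates 2 and 3 were the most alike pair (r = 0.998 over features, which are not independent). N2 replicate 2 was closer to the 3 mutant arrays (r = 0.984 to 0.987) than to N2 replicates 1 and 3 (r = 0.976 and 0.950).

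The median differences of the roles lay on both sides of 0. Genes of vesicle release and peptide release mostly had higher means in the mutant, most cytoskeletal genes and all fate factors had lower means, and transmitter genes lay on both sides of 0. None of these differences passed the test across all features. By limma with Benjamini-Hochberg adjustment over 22548 features, 0 of 39 members had an adjusted p under 0.05, against 0.129% of all features (0.124% higher and 0.00443% lower), and the smallest adjusted p was 0.337, for unc-30. At an unadjusted p under 0.05 there were 7 of 39, 3 higher and 4 lower, against 10.2% of all features. Counting every feature that names a member, 14 of 75 were under 0.05. The 3 mutant arrays lay on 1 side of the 3 N2 arrays on 9 members, 5 higher (snt-1, unc-18, rab-3, egl-21 and tph-1) and 4 lower (snb-1, unc-33, mec-7 and unc-30). Over all features the groups did not overlap on 15.5%, with 6.16% higher and 9.37% lower. The members' median difference was 0.036, with 20 of 39 positive (51.3%), and that of all features was -0.10, with 37.8% positive. The sign of the members' median was not stable. It was -0.093 with each array centred on its own median, which moved the median of all features by -0.13, and -0.046 after quantile normalization. It was also -0.093 without N2 replicate 3, -0.035 without mutant replicate 2, -0.043 without mutant replicate 3, -0.050 with the mean over the features of a gene, -0.045 with mutant replicates 2 and 3 averaged and -0.022 with gene-by-gene array weights.

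**Figure D1:**
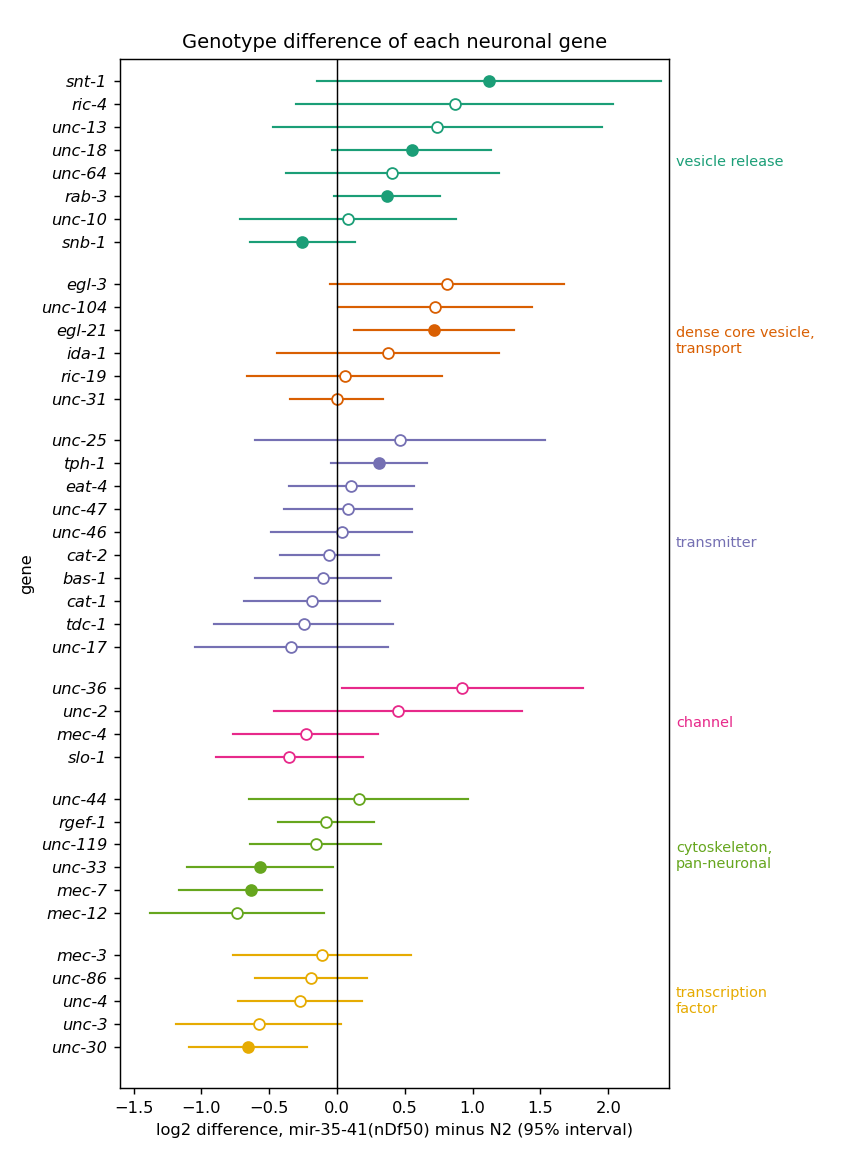
Log2 difference of each of the 39 measured neuronal genes, mir-35-41(nDf50) minus N2 (horizontal axis), by role, with the 95% interval of the limma fit (3 arrays per group). Filled points are the 9 genes whose groups do not overlap. All 5 fate factors lie left of 0, and 7 of the 8 vesicle release genes lie right of it.

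Of the 8 genes of small vesicle release 7 had a higher mean in the mutant, with a median difference of 0.48. On the brightest features 0 passed an unadjusted limma p under 0.05, against 10.2% of all features. On their second features unc-18 and rab-3 had limma unadjusted p of 0.028 and 0.027. The largest difference of any member was that of snt-1, which encodes synaptotagmin, the calcium sensor of fusion. It was at 7.73, 7.85 and 8.06 on the mutant arrays, against 7.21, 7.72 and 5.35 on the N2 arrays. Mutant replicate 1 lay barely above N2 replicate 2, and the gap between the groups came mainly from N2 replicate 3. The difference was 1.12 ± 0.55 (SE), or 2.17-fold, with a limma adjusted p of 0.522 and a 95% interval of -0.15 to 2.39. It was 0.42 without N2 replicate 3. On the second feature of snt-1 the groups overlapped, with mutant replicate 1 at 7.38 and N2 replicate 2 at 7.65. The difference there was 1.05 ± 0.51. The syntaxin-binding protein gene unc-18 was at 9.62, 9.83 and 9.63 on the mutant arrays, against 9.45, 9.38 and 8.59 on the N2 arrays. Again N2 replicate 3 was the lowest, and the difference of 0.55 ± 0.25 (limma adjusted p = 0.508) was 0.27 without it.

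A smaller difference with no overlap was that of rab-3, which encodes the small GTPase of synaptic vesicles. Its arrays gave 10.01, 10.18 and 10.01 in the mutant and 9.80, 9.80 and 9.49 in N2. The groups did not overlap on either of its 2 features, and the differences were 0.37 ± 0.17 and 0.41 ± 0.15 (SE). The plasma membrane SNARE gene ric-4, which encodes SNAP-25, was at 8.56, 9.72 and 9.79 in the mutant, against 8.64, 9.33 and 7.51 in N2. The priming factor gene unc-13 was at 6.55, 8.12 and 8.12 in the mutant, against 6.55, 7.74 and 6.27 in N2. Both genes split the arrays in the same way: mutant replicates 2 and 3 and N2 replicate 2 were high, and mutant replicate 1 and N2 replicates 1 and 3 were low. Their differences of 0.87 ± 0.50 and 0.74 ± 0.52 were thus smaller than the range within the N2 arrays, of 1.82 and 1.47.

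The syntaxin gene unc-64 was at 6.62, 7.04 and 7.25 in the mutant and 6.74, 7.11 and 5.83 in N2. The groups overlapped, its difference was 0.41 ± 0.34, and without N2 replicate 3 it was 0.044. The gene unc-10, which encodes the active zone protein RIM, differed by 0.081 ± 0.34. On 3 features of unc-10 the differences were between -0.24 and 0.41. The exception in direction was snb-1, the synaptobrevin gene of the vesicle membrane, at 11.38, 11.46 and 11.43 on the mutant arrays and 11.59, 11.55 and 11.90 on the N2 arrays. All mutant arrays were lower on this feature, with a difference of -0.26 ± 0.17 (limma adjusted p = 0.587). On the second feature of snb-1 the groups overlapped, and the difference was -0.22 ± 0.18. N2 replicate 3 was its highest array, while it was the lowest of the 6 on each of the other 7 release genes. Over all members N2 replicate 3 was the lowest array on 19 of 39 (48.7%), and over all features on 24.6%.

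**Figure D2:**
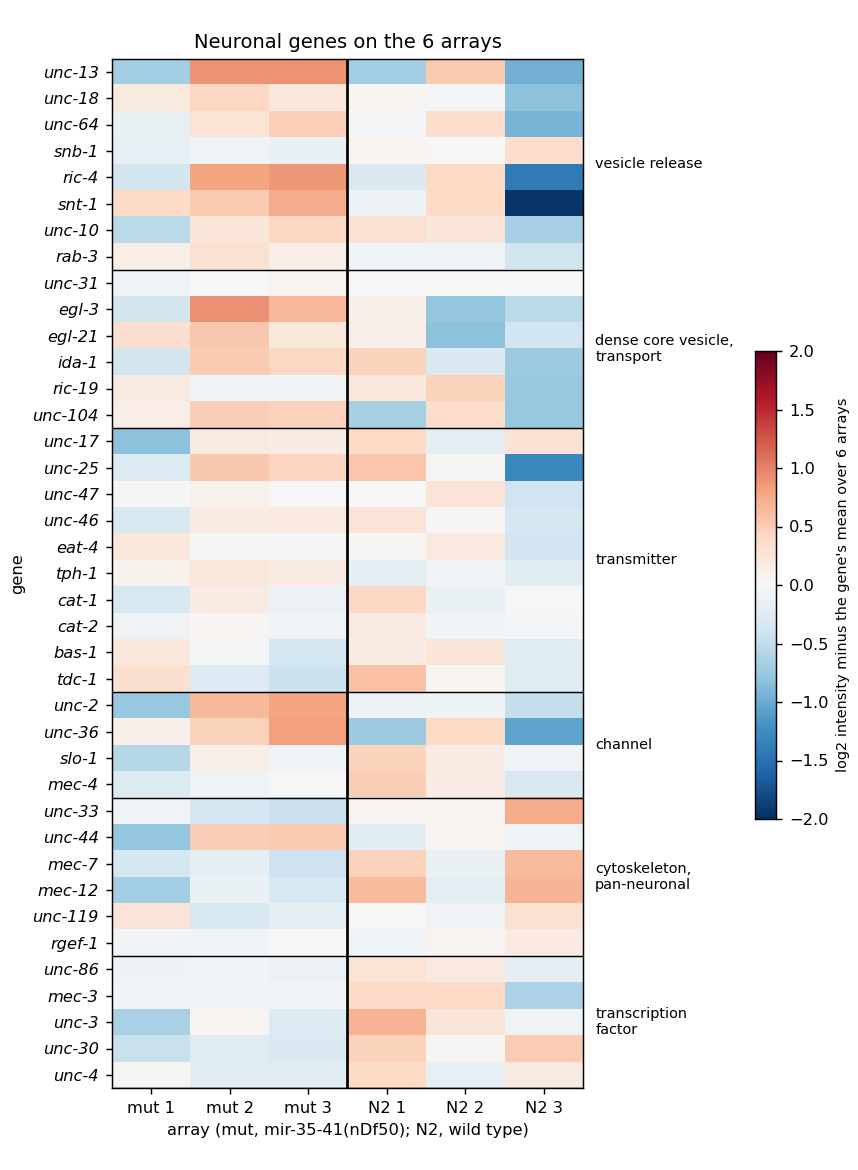
Deviation of each neuronal gene from its own mean over the 6 arrays (colour, log2), with the mutant arrays left of the line and the N2 arrays right of it, and genes in rows by role. The blue cells of N2 replicate 3 in the upper rows, down to snt-1 at 5.35, are the block to see.

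Of the 6 genes of dense core vesicles and vesicle transport 5 had a higher mean in the mutant, with a median difference of 0.55. An unadjusted limma p under 0.05 was reached by 2 of these, both higher, against 6.23% higher over all features. The carboxypeptidase gene egl-21, whose product trims neuropeptide precursors, was at 10.15, 10.38 and 10.05 on the mutant arrays. On the N2 arrays it was at 9.96, 9.02 and 9.46. The mutant arrays were all higher, and N2 replicate 2, not 3, was the lowest. The difference was 0.72 ± 0.25 (SE), or 1.64-fold, with a 95% interval of 0.12 to 1.31 and a limma adjusted p of 0.445. The proprotein convertase gene egl-3, which cuts the same precursors before egl-21 acts, had 8.66, 9.94 and 9.70 in the mutant and 9.13, 8.25 and 8.49 in N2. Its groups overlapped through mutant replicate 1, and it differed by 0.81 ± 0.37 (limma adjusted p = 0.508).

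The kinesin gene unc-104, which moves vesicle precursors down the axon, was at 7.28, 7.64 and 7.62 in the mutant and 6.48, 7.49 and 6.39 in N2. N2 replicate 2 lay among the mutant arrays, and the difference was 0.72 ± 0.31 (limma adjusted p = 0.489). Of the other genes of this role, ida-1, a phosphatase-like protein of the dense core vesicle membrane, differed by 0.38 ± 0.35. The genes ric-19, whose product acts in making these vesicles, and unc-31, which encodes the priming factor CAPS, differed by 0.055 ± 0.31 and -0.0036 ± 0.15. On unc-31 all 6 arrays lay between 4.95 and 5.08, a level below the median of all features.

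Without N2 replicate 3 the median difference was 0.27 for small vesicle release and 0.32 for dense core vesicles and transport, of the same sign as with all arrays. Leaving out each array in turn gave 0.27 to 0.68 for the first role and 0.32 to 0.70 for the second.

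**Figure D3:**
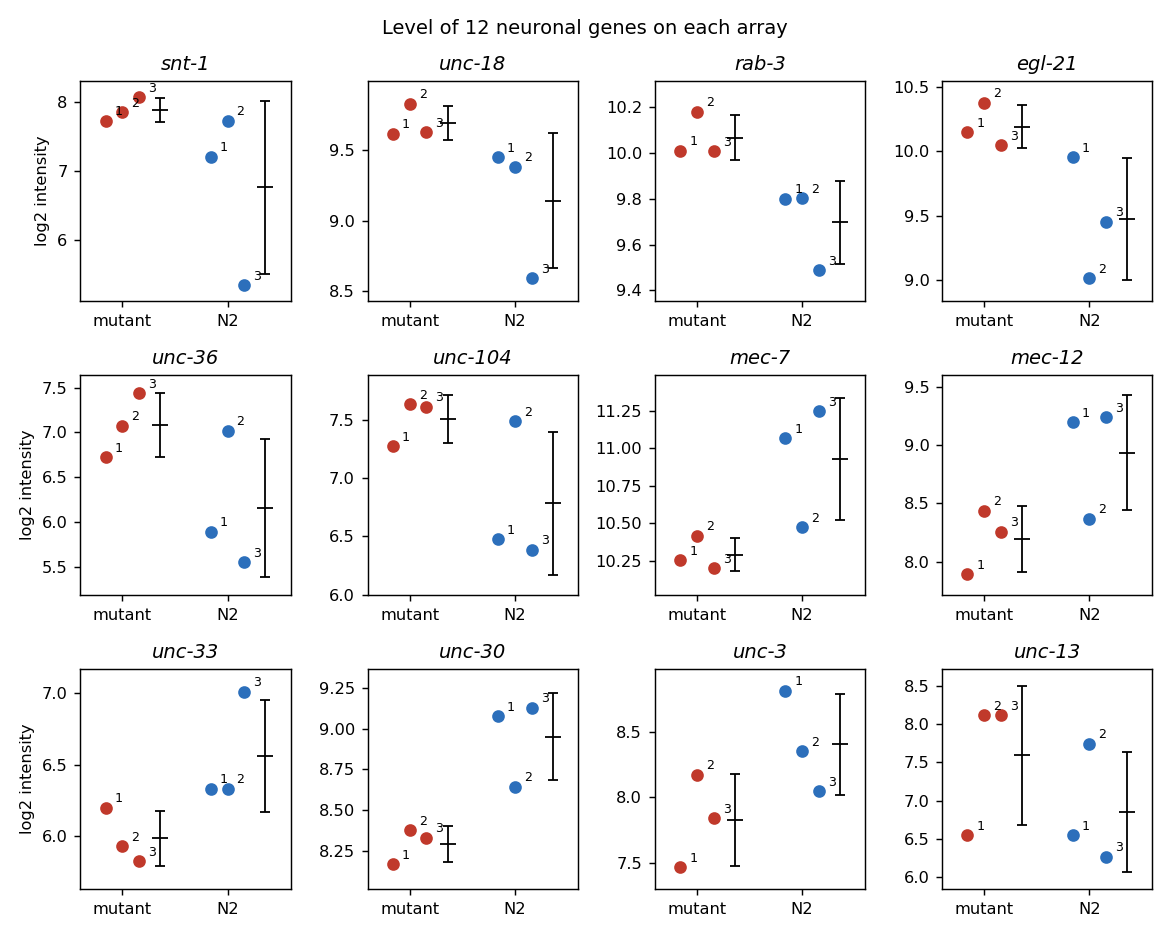
Log2 intensity of 12 neuronal genes on each array (numbered points), with the mutant left and N2 right, and the mean and SD of the 3 arrays beside each group. N2 replicate 2 lies nearest the mutant on unc-36, unc-104, mec-7, mec-12, unc-30 and unc-13, and N2 replicate 3 stands far below the rest on snt-1 and unc-18.

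Genes that define a transmitter lay on both sides of 0. Of the 10 measured, 5 had positive and 5 negative differences, and the median was -0.011 (-0.11 to 0.063 leaving out each array in turn). At an unadjusted limma p under 0.05 there were 0, against 10.2% of all features. The tryptophan hydroxylase gene tph-1, which commits a neuron to serotonin, was the one whose groups did not overlap, at 6.54, 6.70 and 6.63 in the mutant and 6.29, 6.41 and 6.24 in N2. The difference was 0.31 ± 0.15 (SE), or 1.24-fold, with a limma adjusted p of 0.523. For GABA, the synthesis gene unc-25 was at 7.03, 7.84 and 7.72 in the mutant and 7.86, 7.33 and 6.01 in N2, so that N2 held both its highest and its lowest array. The vesicular GABA transporter gene unc-47 and its partner unc-46 differed by 0.080 ± 0.20 and 0.036 ± 0.22.

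The vesicular glutamate transporter gene eat-4 differed by 0.10 ± 0.20, with a 95% interval of -0.36 to 0.56. Among amine genes, the vesicular transporter cat-1 differed by -0.19 ± 0.22, the tyrosine hydroxylase cat-2, needed for dopamine, by -0.058 ± 0.16, the decarboxylase bas-1 by -0.11 ± 0.22 and the tyrosine decarboxylase tdc-1 by -0.25 ± 0.28. For these 4 genes the 95% intervals lay within -0.91 to 0.41. The feature of tdc-1 was at 8.32, 7.73 and 7.55 in the mutant and 8.57, 8.02 and 7.74 in N2, and its groups overlapped. The feature of cat-2 was at 5.61, 5.71 and 5.61 in the mutant and 5.86, 5.61 and 5.63 in N2, with N2 replicate 1 the highest and the groups overlapping. The levels of tph-1, cat-2, eat-4 and unc-46 were below the median of all features.

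The vesicular acetylcholine transporter gene unc-17 had 5 features, and they showed 2 patterns. In the worm unc-17 and cha-1 share a first exon and a promoter, and the table annotates all 5 features with both the transporter and the choline acetyltransferase activity, so a feature could not be given to 1 of these genes. The feature drawn from transcript ZC416.8A was at 6.63, 7.44 and 7.41 in the mutant and 7.82, 7.01 and 8.10 in N2. The feature drawn from transcript ZC416.8B was at 6.94, 6.74 and 6.75 in the mutant and 7.21, 6.71 and 6.37 in N2. On the first, mutant replicate 1 was the lowest array and N2 replicate 3 the highest, and on the second N2 replicate 3 was the lowest. Their differences were -0.48 ± 0.34 and 0.043 ± 0.23 (SE). The 5 features spanned -0.62 to 0.043, and the brightest, used for the gene, gave -0.34 ± 0.31.

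The 4 channel genes divided evenly, with a median difference of 0.11. That median was -0.020 with each array centred on its median, and leaving out each array in turn gave -0.060 (without N2 replicate 3) to 0.39 (without mutant replicate 1). The calcium channel subunit gene unc-36 (alpha2/delta) was at 6.73, 7.08 and 7.44 in the mutant and 5.90, 7.02 and 5.56 in N2, a difference of 0.92 ± 0.38 (SE) with a limma adjusted p of 0.484. N2 replicate 2 lay among the mutant arrays and the other N2 arrays well below. Its pore-forming partner unc-2, the alpha1 subunit of the presynaptic calcium channel, was at 7.06, 8.46 and 8.59 in the mutant, against 7.71, 7.71 and 7.34 in N2. Here mutant replicate 1 lay below all N2 arrays. The difference of 0.45 ± 0.39 was 0.94 without that array, 0.24 without mutant replicate 2, 0.17 without mutant replicate 3 and 0.22 as the mean over its features. The calcium-activated potassium channel gene slo-1 was at 7.73, 8.42 and 8.24 in the mutant and 8.75, 8.45 and 8.24 in N2, a difference of -0.35 ± 0.23. The touch receptor channel gene mec-4 was at 5.80, 5.99 and 6.07 in the mutant and 6.56, 6.24 and 5.76 in N2, a difference of -0.23 ± 0.23. On both genes N2 replicate 1 was the highest array and the groups overlapped.

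Of the 6 cytoskeletal and pan-neuronal genes 5 had lower means in the mutant, with a median difference of -0.36. An unadjusted limma p under 0.05 was reached by 3 of these, all lower, against 3.97% lower over all features. Leaving out each array in turn gave medians of -0.46 to -0.19, the last without N2 replicate 3. The beta-tubulin gene mec-7, which with mec-12 builds the special microtubules of touch receptor neurons, was at 10.25, 10.42 and 10.20 on the mutant arrays and 11.07, 10.47 and 11.25 on the N2 arrays. The alpha-tubulin gene mec-12 was at 7.89, 8.44 and 8.26 in the mutant and 9.20, 8.37 and 9.24 in N2. On these features of both genes N2 replicates 1 and 3 were high and N2 replicate 2 lay next to the mutant arrays. The differences were -0.64 ± 0.23 for mec-7 and -0.74 ± 0.28 for mec-12 (SE), with limma adjusted p of 0.445 and 0.457. A second, dimmer feature of mec-7 was at 6.69, 6.69 and 6.62 in the mutant and 6.92, 6.82 and 7.39 in N2. There N2 replicate 1 lay near N2 replicate 2, and the difference was -0.37 ± 0.19.

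The features of mec-7 and mec-12 end in _s_at or _x_at, suffixes that Affymetrix gives to probe sets whose probes can match more than 1 transcript. Signal from other tubulin genes was not tested. Of the features used for the 39 members, 17 end in _s_at and 3 in _x_at, among them those of snt-1, unc-30 and unc-13. For these, too, signal from other transcripts was not tested. The broadly used tubulin genes tba-1, tba-2, tbb-1 and tbb-2, chosen after their values were seen, differed by -0.44, -0.35, -0.44 and -0.31. On these N2 replicate 3 stood alone: tbb-2 was at 13.08, 13.08 and 12.93 in the mutant and 13.08, 12.99 and 13.95 in N2.

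The gene unc-33, which encodes a CRMP-related protein that organises axonal microtubules, was lower on every mutant array on all 3 of its features. On the brightest it was at 6.20, 5.93 and 5.83 in the mutant and 6.33, 6.33 and 7.01 in N2, a difference of -0.57 ± 0.23 (SE) with a limma adjusted p of 0.478. Without N2 replicate 3 the difference was -0.35. The pan-neuronal markers unc-119, for a lipid-binding trafficking protein, and rgef-1, for a Ras guanine nucleotide exchange factor, differed by -0.16 ± 0.21 and -0.082 ± 0.15. On rgef-1 the mutant arrays were at 3.93, 3.93 and 3.98 and the N2 arrays at 3.90, 4.04 and 4.14, below the median level of 6.49 of all features.

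The ankyrin gene unc-44, which makes short and giant neuronal forms and holds axonal proteins in place, had 9 features with unlike patterns. On the brightest the arrays gave 10.51, 11.77 and 11.82 in the mutant and 11.08, 11.35 and 11.20 in N2, a difference of 0.16 ± 0.35 (SE), with mutant replicate 1 below every other array. That array was the lowest of the 6 on 7 of the 9 features, among them every feature of positive difference. On another feature unc-44 was at 7.69, 7.84 and 7.69 in the mutant, against 8.69, 8.29 and 8.61 in N2. There all mutant arrays were lower, the difference being -0.79 ± 0.17, with a limma adjusted p of 0.207, the smallest of all 75 features of the members. A similar feature differed by -0.61 ± 0.16 (limma adjusted p = 0.291). The mean over all 9 features differed by -0.060, the opposite sign to the brightest.

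**Figure D4:**
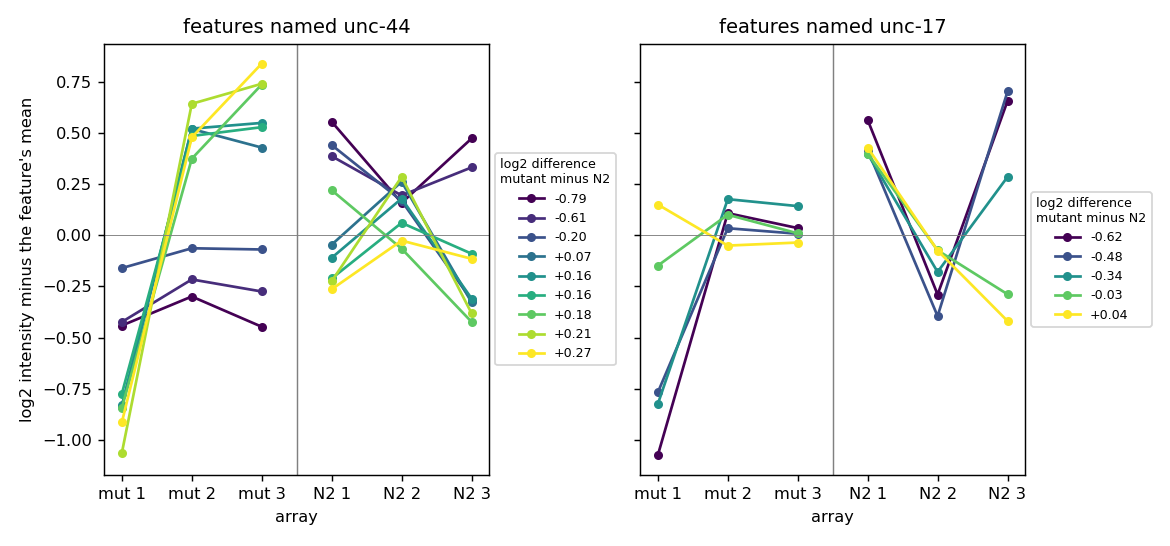
Deviation of every feature named unc-44 (left, 9 features) and unc-17 (right, 5 features) from its own mean over the 6 arrays (vertical axis, log2), with the mutant arrays left of the grey line. Lines join values of 1 feature and imply no order. On unc-44 the features of -0.79 and -0.61 lie below 0 on all mutant arrays, while those of positive difference are low on mutant replicate 1 alone among the mutant arrays.

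Among 20 members with several features, the features of 15 had differences of 1 sign. Besides unc-44, unc-17 and unc-10 the exceptions were unc-46 and unc-2, whose 4 features spanned -0.47 to 0.78.

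All 5 transcription factor genes of neuron fate had lower means in the mutant, with a median difference of -0.27. Over all features 3.97% were lower at an unadjusted limma p under 0.05, and of these factors 1 was. That gene was unc-30, a homeobox gene that gives GABA motor neurons their identity and drives unc-25 and unc-47. It was at 8.17, 8.38 and 8.33 on the mutant arrays and 9.08, 8.64 and 9.13 on the N2 arrays. Every mutant array was below every N2 array, and the same held on its second feature, at 7.39, 7.39 and 7.39 in the mutant and 8.26, 7.66 and 8.03 in N2. The differences were -0.66 ± 0.19 and -0.59 ± 0.19 (SE), with limma adjusted p of 0.337 and 0.420. Its targets unc-25 and unc-47 had differences of 0.46 ± 0.46 and 0.080 ± 0.20. Without N2 replicate 3 these were -0.062 and -0.099, and that of unc-30 was -0.57.

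The gene unc-3, which encodes the COE factor of cholinergic motor neurons, was at 7.47, 8.17 and 7.84 in the mutant and 8.82, 8.35 and 8.05 in N2. Mutant replicate 2 lay above N2 replicate 3 on this feature, while on its second feature the groups did not overlap. The 2 differences were -0.58 ± 0.26 and -0.59 ± 0.20 (SE), with limma adjusted p of 0.505 and 0.441. The homeobox gene unc-4, which sets the inputs of a class of motor neurons, was at 6.68, 6.43 and 6.45 in the mutant and 7.05, 6.49 and 6.84 in N2, a difference of -0.27 ± 0.20. The POU gene unc-86, which acts in many neuroblasts, was at 9.09, 9.14 and 9.08 in the mutant and 9.48, 9.39 and 9.01 in N2, a difference of -0.19 ± 0.18. On both the groups overlapped, through N2 replicate 2 for unc-4 and N2 replicate 3 for unc-86. The unc-86 target mec-3, the LIM homeobox gene of touch receptor neurons, was at 6.69, 6.69 and 6.69 in the mutant and 7.12, 7.15 and 6.13 in N2. Its mutant arrays lay within 0.004 of each other between high and low N2 arrays, and the difference was -0.11 ± 0.28. Without N2 replicate 1 the median difference of the 5 factors was -0.14, and without N2 replicate 3 it was -0.44.

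The calls turned on N2 replicate 2. Without it 5 of 39 members passed the limma adjusted threshold, against 5.72% of all features (4.86% higher and 0.856% lower). Higher in the mutant were unc-36 (1.35 ± 0.25, SE, adjusted p = 0.0332) and unc-104 (1.08 ± 0.18, adjusted p = 0.0262). Lower were mec-7 (-0.87 ± 0.17, adjusted p = 0.0373), unc-30 (-0.81 ± 0.16, adjusted p = 0.0400) and mec-12 (-1.02 ± 0.21, adjusted p = 0.0415). No member passed without N2 replicate 1 or 3, or without any 1 of the mutant arrays. N2 replicate 2 lay nearer the mutant mean than both other N2 arrays on 21 of 39 members, and on 55.3% of all features. It did so on all 5 members called without it. Leaving it out therefore widened their differences, and their adjusted p depends on that choice of array.

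The range within the N2 arrays exceeded the genotype difference on 35 of 39 members, and on 89.4% of all features. Its median over the members was 0.68, and the median range within the mutant arrays was 0.37. Mutant replicates 2 and 3 differed by a median of 0.11 per member, and mutant replicate 1 from their mean by 0.35. As groups, the vesicle release genes deviated from their gene means by -0.16, 0.36 and 0.45 on the mutant arrays and -0.055, 0.29 and -0.88 on the N2 arrays (medians over the 8 genes). The fate factors deviated by -0.11, -0.060 and -0.21 on the mutant arrays and 0.40, 0.19 and -0.070 on the N2 arrays. The first group thus had a mutant array below 2 N2 arrays, and the second had all but 1 N2 array above all mutant arrays.

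**Figure D5:**
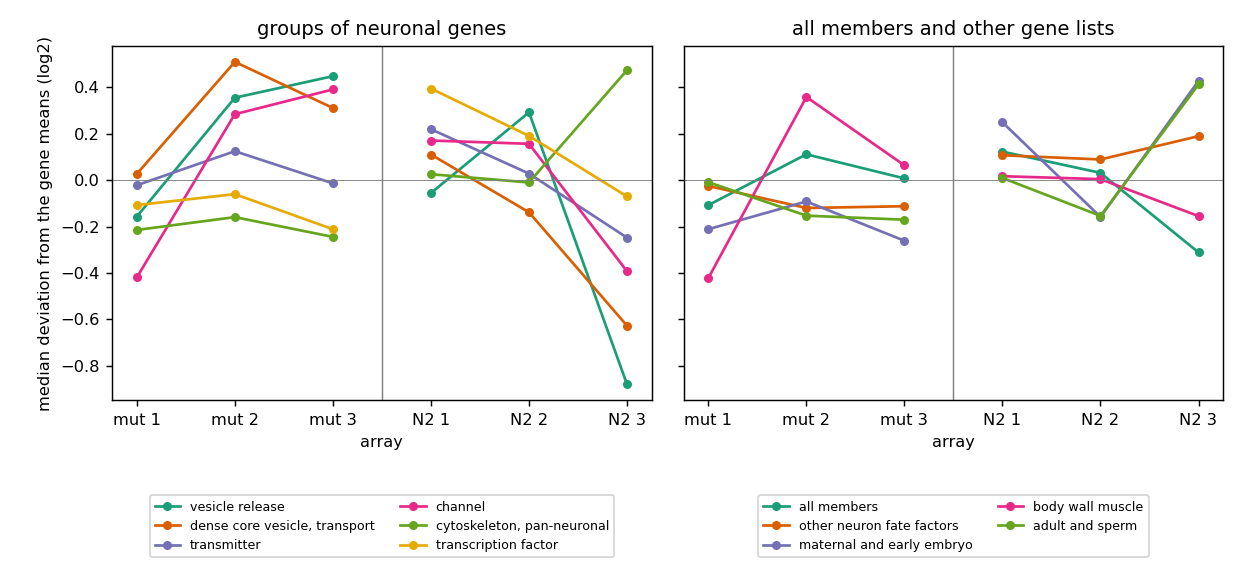
Median deviation of gene groups from the gene means (vertical axis, log2) on each array, for the 6 roles of the neuronal genes (left) and for all 39 together with other gene lists (right), mutant arrays left of the grey line. Lines join values of 1 list and imply no order. N2 replicate 3 is at -0.88 for vesicle release and at 0.43 for maternal genes.

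Some markers of other cells and stages were high or low on the same arrays as some of the members. The lowest log2 value of any list gene was 3.18. No detection call was used, so these values do not show which markers were expressed. Of the 25 maternal and early embryo genes, all measured, 21 had lower means in the mutant, with a median difference of -0.34. Without overlap 1 gene was higher and 4 were lower. Over all features 37.8% of the differences were positive, and their median was -0.10. The groups did not overlap on 6.16% of all features with the mutant higher and on 9.37% with it lower. The summed intensity of the maternal genes was 32825 to 35480.4 on the mutant arrays and 34228 to 57698 on the N2 arrays. The median deviation was -0.21, -0.091 and -0.26 on the mutant arrays and 0.25, -0.16 and 0.43 on the N2 arrays. N2 replicates 1 and 3, high in maternal genes, were low in unc-13, ric-4, unc-36 and unc-104 and high in mec-7, mec-12 and unc-30. These genes were picked after their values were seen, and other members split the N2 arrays otherwise. On ida-1 and unc-25 N2 replicate 1 was the highest N2 array and N2 replicate 3 the lowest. Mutant replicate 1, at -0.21 in maternal genes, was as low as N2 replicate 1 in unc-13 and ric-4. The part of embryo age in these differences was not tested. The eggshell gene cpg-2 (-1.14 ± 0.24) and the meiotic spindle gene mei-1 (-0.61 ± 0.16) had the smallest p of that list.

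Body wall muscle genes (18 of 18 measured) had a median difference of 0.026 and summed intensities of 28335 to 37756 in the mutant and 35236 to 42423 in N2, and mutant replicate 1 was at a median deviation of -0.42. That array was also the lowest mutant array in unc-13, unc-2, unc-44 and egl-3, genes picked after their values were seen. On egl-3 it lay above N2 replicates 2 and 3. It was the lowest mutant array on 26 of 39 members, and on others, such as tdc-1 and unc-119, it was the highest mutant array. Adult and sperm genes (17 of 17) had a median difference of -0.25, with 14 below the median level of all features, and summed intensities of 840.5 to 991.1 in the mutant and 824.4 to 1260 in N2. Glia markers (9 of 11 measured, median difference -0.081) summed to 2443 to 2768 on the mutant arrays and 2500 to 2868 on the N2 arrays. Pharynx markers (11 of 12, -0.20) summed to 4741 to 7065 on the mutant arrays and 6413 to 6990 on the N2 arrays. Epidermis markers (20 of 22, median difference 0.0069) summed to 49136 to 51603 on the mutant arrays and 50626 to 66340.0 on the N2 arrays. In each of these 3 lists the sums of the groups overlapped. Intestine markers (17 of 17, -0.067) summed to 11173 to 16035 on the mutant arrays and 12430.1 to 18354 on the N2 arrays. Early zygotic genes (19 of 22, -0.11) summed to 7450 to 8665 on the mutant arrays and 7509 to 8750 on the N2 arrays. In the 8 lists together 0 of 136 measured genes passed the adjusted threshold by limma, against 0.129% of all features. At an unadjusted p under 0.05 there were 5 higher and 9 lower, against 6.23% and 3.97% of all features. The part of other cell types in the members' differences was not tested.

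Beyond the 40 genes, 5 further lists of neuronal genes held 231, of which 222 were measured. By limma 0 of the 222 passed the adjusted threshold, with 6 higher and 13 lower at an unadjusted p under 0.05, against 6.23% and 3.97% of all features. The median difference was -0.032, and 10 of the 13 lower genes were transcription factors.

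Of 45 neurogenic and other fate factors, all measured, 37 had lower means in the mutant, with a median difference of -0.21 (-0.10 over all features), and 17.8% were positive. The groups did not overlap on 13 lower genes and 1 higher gene (28.9% and 2.22%), against 9.37% and 6.16% of all features. The proneural gene ngn-1, which encodes neurogenin, was at 8.87, 8.36 and 8.68 in the mutant and 9.47, 9.44 and 9.71 in N2. Every mutant array was well below every N2 array, and N2 replicate 2 stood with the other N2 arrays, unlike on unc-30 or mec-7. The difference was -0.90 ± 0.19 (SE), with a limma adjusted p of 0.194. The LIM homeobox gene lin-11 was at 7.95, 8.10 and 7.84 in the mutant and 8.79, 8.31 and 8.61 in N2, a difference of -0.61 ± 0.18 (limma adjusted p = 0.373). The homeobox gene unc-42 was at 8.83, 8.87 and 9.04 in the mutant and 9.41, 9.19 and 9.59 in N2, a difference of -0.48 ± 0.17 (limma adjusted p = 0.448). Neither gene's groups overlapped. On 18 of the 45 factors N2 replicate 3 was the highest of the 6 arrays, and on 41.9% of all features.

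The other vesicle cycle and synapse genes, 48 measured of 50, had 25 positive and 22 negative differences, with a median of 0.049. The gene tom-1, which encodes tomosyn, an inhibitor of vesicle priming, was at 6.62, 7.17 and 7.34 in the mutant and 5.75, 6.37 and 5.12 in N2. All mutant arrays were higher, by 1.30 ± 0.34 (SE) on average, with a limma adjusted p of 0.294. The peptide processing chaperone gene sbt-1 and the dense core vesicle gene hid-1 were also higher on all mutant arrays, by 0.62 ± 0.26 and 0.44 ± 0.19. In this list the groups did not overlap on 3 higher and 3 lower genes (6.25% each), against 6.16% and 9.37% of all features.

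Transmitter and receptor genes, 49 measured of 52, had 24 positive and 25 negative differences, and 27 lay below the median level of all features. The glutamate transporter gene glt-1 differed by 0.83 ± 0.27, the glutamate-gated chloride channel gene avr-14 by 0.77 ± 0.40 and the glutamate receptor gene glr-5 by 0.75 ± 0.35, with overlapping groups on all 3. Ion channel genes, 36 measured of 39, had 17 positive and 19 negative differences. The potassium channel gene sup-9 was at 7.11, 7.01 and 6.86 in the mutant and 7.84, 7.50 and 7.58 in N2, all mutant arrays being lower, and differed by -0.65 ± 0.17 (limma adjusted p = 0.299). The sodium leak channel gene unc-80 differed by 1.02 ± 0.35 and the potassium channel gene slo-2 by 0.82 ± 0.31. Axon, microtubule and cilium genes, 44 measured of 45, had 26 positive and 18 negative differences, with tbb-4, a tubulin of ciliated neurons, at -0.49 ± 0.21, the kinesin-like guidance gene vab-8 at 1.13 ± 0.50 and the ciliary kinesin gene osm-3 at -0.38 ± 0.19.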

How the data were processed

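Whole-embryo RNA of 3 mutant and 3 N2 samples was measured on Affymetrix arrays. The authors deposited linear intensity values and, in the series value table, log2 values of the same arrays, which equal the log2 of the intensity to within 5.63e-06. Affymetrix Expression Console was used, per the submitters' processing notes. How it corrected background, normalized and summarised probes, and in which version, is not given in the sources used here. A free-text stage line at odds with the stage label was not used.

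From 22625 features 77 array controls were left out. Log2 intensity was tested with limma 3.58.1 (lmFit and eBayes, R 4.3.3, two-sided), with Benjamini-Hochberg adjustment over 22548 features. Gene names are the table's own, updated through RefSeq gene tables. Members and lists were chosen with earlier results of these data known. All members are named, in full those whose groups do not overlap and the brightest and dimmest of each role, plus others chosen after their values were seen; of each further neuronal list the 3 genes of smallest p are named, and of cell type lists at most 2. On simulated data of this size with 200 features changed, limma called 0 at 2-fold, 162 at 4-fold and 192 at 8-fold. It also called 0, 4 and 14 unchanged features. The simulated noise was independent between features and arrays, without the patterns that many features share on these arrays. Deviations of same-numbered arrays correlated at -0.03, 0.07 and -0.18, so numbers were not taken as pairs. Alternatives were a replicate block, other scalings, filters and weights, and leaving out each array; array weights by the gene-by-gene method were added after seeing the data. No sequence or promoter motif was analysed here.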

Additional observations from a re-analysis of the deposited data

How the results depend on the processing

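The number of arrays limits precision. The counts over all features were unstable. Against 28 higher and 1 lower, the replicate block gave 18 and 1, normalizing by quantiles again 3 and 0, centring arrays on their median 47 and 3, an added constant of 16 gave 8 and 0, an intensity trend with robust prior 45 higher, averaging mutant replicates 2 and 3 gave 0 and 0, gene-by-gene array weights 2016 and 1592, and leaving out 1 array 0 to 1096 and 0 to 193. No member passed the adjusted threshold except with gene-by-gene weights (10 members) and without N2 replicate 2 (5, the range leaving out 1 array being 0 to 5). Those weights were 0.459, 4.59 and 4.88 for the mutant arrays and 1.77, 0.384 and 0.143 for the N2 arrays, and gave the fate factors a median of -0.49. The planned weights did not converge and gave no value. Centring moved the median of all features by -0.13.

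Of 655 member values under alternatives 600 kept direction and side of the threshold, 15 passed it, and 40 changed sign, in 12 members. Some alternatives leave a member's difference as it was and could not change its sign. These are the replicate block, the series value table, the intensity trend, leaving out dim features and 1 feature per gene. The same holds for the mean over features where a gene has 1 feature. The count of 600 therefore overstates how stable the directions were. Quantile normalization gave -0.046 for unc-10, 0.053 for unc-31, -0.091 for ric-19, -0.063 for unc-47, -0.041 for unc-46 and 0.020 for rgef-1. Centring gave -0.048 for unc-10, -0.073 for ric-19, -0.048 for unc-47, -0.093 for unc-46 and -0.025 for eat-4. Gene-by-gene weights gave 0.037 for unc-31, -0.23 for ric-19, -0.022 for unc-46, -0.046 for eat-4 and 0.014 for rgef-1. The mean over features gave -0.050 for unc-46 and -0.060 for unc-44, and averaging mutant replicates -0.063 for unc-10, -0.045 for unc-46 and -0.054 for unc-44. Leaving out 1 array gave -0.26 to 0.040 for bas-1, -0.10 to 0.021 for cat-2, -0.059 to 0.23 for eat-4, -0.44 to 0.062 for mec-3, -0.31 to 0.30 for ric-19, -0.23 to 0.37 for unc-10, -0.062 to 0.86 for unc-25, -0.031 to 0.032 for unc-31, -0.065 to 0.59 for unc-44, -0.12 to 0.20 for unc-46 and -0.099 to 0.23 for unc-47. The causes of these changes were not tested.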
